A study of Homo sapiens with 6 samples.

Results

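SW480 is an established human colorectal adenocarcinoma line, and the cells described here carried a nontargeting short hairpin RNA (shNT), the control of a PCYT2 knockdown experiment. They were taken as the 2 libraries of the series with the treatment shNT, of 6 libraries in all. The other 4 libraries came from SW480 cells with hairpin shPcyt2-1 or hairpin shPcyt2-2 against PCYT2 (2 libraries each), the enzyme that makes CDP-ethanolamine for phosphatidylethanolamine. The paper describes viral delivery and puromycin selection for its knockdown hairpins. The shNT cells were taken to be transduced and selected in the same way, and so not parental SW480 cells, which the labels do not state. The labels do not say whether the 2 shNT libraries came from separate cultures, so the spread between them may be technical.

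RNA-Seq values were deposited as 1 table per library and were read as FPKM, fragments per kilobase of transcript relative to the size of the library. The shNT tables summed to 399027 and 398317 FPKM, with 17356 and 17227 genes above 0. The number of reads behind these values is unknown. A gene was counted as expressed at a mean of at least 0.5 FPKM over both shNT libraries, and "not listed" means that neither shNT table has a value above 0 for it. Pairs of values below are FPKM in shNT replicate 1 and shNT replicate 2, in that order, and SD is over n = 2. No groups were compared by a test.

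Colonic epithelium is a single layer of simple epithelial cells that is renewed from crypt stem cells, which depend on Wnt signals, and that matures into absorptive, goblet and enteroendocrine cells. Its position along the body axis is recorded by HOX and CDX transcription factors. In most colorectal cancers the Wnt pathway is active without ligand because APC, the scaffold that marks β-catenin for destruction, is truncated, and the SW480 line is a standard example.

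The label of the cells was checked against 12 markers of colorectal epithelium, of which 9 were expressed. The keratins KRT8, KRT18 and KRT19 and the adhesion molecule EPCAM (281 and 258) were abundant, the microvillus protein VIL1 was at 38.8 and 39.2, and the intestinal master regulator CDX2 was at 15.5 and 16.9. CDH17 (1 and 0.968) was low, and LGALS4 was at 1.58 and 1.77. KRT20 (0.0522 and 0), GPA33 (0.154 and 0.202) and CEACAM5 (0.316 and 0.21) were under the limit. KRT20 and LGALS4 stand under 2 identifiers, a limit given below. Other genes of mature cells are described with the differentiation list, where some were expressed.

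Markers of other cell types were measured in the same way, and 13 of 56 were expressed (21 at a limit of 0.1 FPKM), against 59.7% of the 19951 annotated protein-coding genes. Summed over the list they came to 1044.0 and 1109.8 FPKM, nearly all of it KRT5 (957 and 1026.4), a keratin of squamous epithelium that is described below. The leukocyte marker PTPRC, the B cell marker MS4A1, the fibroblast collagens COL1A2 and COL3A1, the muscle regulator MYOD1, the neuronal RBFOX3, the adipocyte hormone ADIPOQ and the red cell gene HBB were not listed. The endothelial PECAM1 was at 0 and 0.0226. Apart from KRT5, the highest by mean was HBA1 (21.3 and 21.6), an α-globin gene, then CD68 (20.9 and 17.9), a lysosomal protein best known from macrophages, HBA2 (15.5 and 16.6), a near-identical copy of HBA1 with which reads can be exchanged, and SYT1 (12.1 and 11.7), a sensor of synaptic vesicle release. Albumin (ALB) was at 5.56 and 3.52 and the liver protease inhibitor SERPINA1 at 3.57 and 3.34 under 2 identifiers. The other expressed members were low, namely the muscle filament DES (1.19 and 1.39), the squamous cadherin DSG3 (1.28 and 1.04), the fibroblast matrix genes COL1A1 (1.08 and 1.03) and LUM (0.789 and 0.863), the monocyte receptor CD14 (0.713 and 1.17) and the endothelial claudin CLDN5 (0.657 and 0.751). In bulk libraries a high level in a few cells and a low level in all of them cannot be told apart.

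In the shNT cells 12710 genes were expressed, of which 11909 were protein-coding, and 491 were long noncoding genes. The protein-coding ones were 59.7% of the 19951 annotated, the share to set beside each list count below. All lists together stood at 65.7% (737 of 1121 genes). The median expressed gene stood at 6.92 FPKM. A mean of at least 10 FPKM was reached by 5154 genes, at least 100 by 586 and at least 1000 by 53. The 336 most abundant genes held 50% of the summed FPKM, and the top 100 held 34.4% (34.9% in replicate 1 and 34% in replicate 2). No mitochondrial protein-coding gene was listed, although 13 are annotated, so the part of the RNA that came from mitochondria cannot be read from these tables.

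The 2 libraries had a Pearson r of 0.9934 across the expressed genes on log2(FPKM + 1), a correlation across genes, which are not independent replicates. Their spread narrowed with level. Between 0.5 and 1 FPKM the median gene differed 1.21-fold between libraries and 5% of genes differed over 2.19-fold. At 10 to 100 FPKM these values were 1.08-fold and 1.24-fold, and at 100 FPKM or more 1.07-fold and 1.20-fold. Small differences between the libraries moved with base composition, whose part in single values was not tested. Protein-coding genes at 5 FPKM or more were split into 5 equal groups of 1455 by the GC content of the longest annotated transcript. Replicate 2 was higher for 9.69% of the genes with the lowest GC content (31.3 to 42.5%) and for 91.6% of those with the highest (59.8 to 74.7%), with median log2 ratios of -0.17 and 0.16. Only 63 of the 11561 genes at a mean of 1 or more differed over 2-fold. A gene near the limit of 0.5 can thus fall on either side of it depending on the library. This spread is that of 1 gene between libraries. It does not cover what length, base composition or shared reads do to the levels of different genes, so ratios between genes are given as descriptions.

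**Figure D1:**
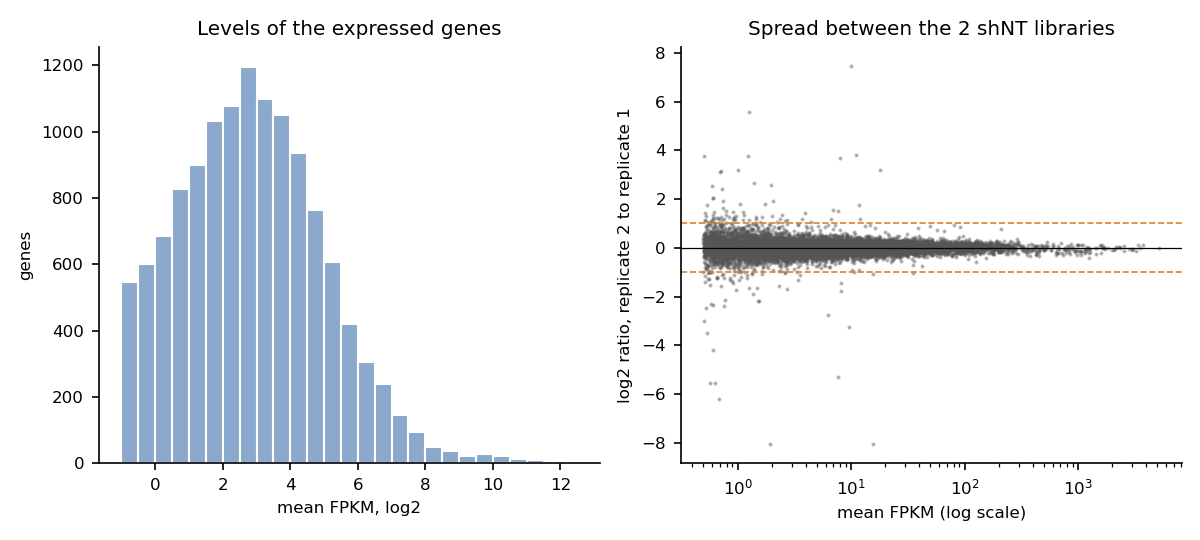
Left, number of the 12710 expressed genes by mean level (log2 FPKM, bins of 0.5). Right, each expressed gene's log2 ratio of shNT replicate 2 to shNT replicate 1 against its mean FPKM (log axis), with dashed lines at a 2-fold difference. The cloud narrows toward the abundant genes, and 9 genes at 10 FPKM or more lie outside the dashed lines.

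One feature of the tables limits what low values mean. For 80 of the 1121 genes on the lists below, the same values stand under 2 or more identifiers, of which 1 was kept. Each was counted once. Of the 192 protein-coding genes above 0 with 3 or more identifiers, 112 lie in the major histocompatibility region (chromosome 6 of GRCh38, 28000000 to 34000000). Their levels can be too low. Of the 77 cytosolic ribosomal protein genes, the 72 with 1 identifier had a median of 984 FPKM, whereas RPS9, listed under 10 identifiers, was at 51.9 and 53.5, and RPS18, listed under 6, was at 0.114 and 0.0486. The 3 with 2 identifiers were all expressed, with a median of 947. RPS9 and RPS18 were chosen after their values were seen. Among all protein-coding genes above 0 the median was 4.44 with 1 identifier, 2.46 with 2 and 0.808 with 3 or more. Within the major histocompatibility region these medians were closer together. They were 1.5 for 19 genes with 1 identifier, 1.65 for 5 with 2 and 0.737 for 112 with 3 or more. A low value of a gene with 3 or more identifiers is therefore not read as low expression here. Genes with 2 are marked, although the ribosomal protein genes show no such loss for them.

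The most abundant transcripts served translation, the keratin skeleton, glycolysis, iron storage and the actin skeleton. RPL13A (ENSG00000142541, chromosome 19 of GRCh38, 49487554 to 49492308), a protein of the large ribosomal subunit, led with 5226 and 5161 FPKM. KRT8 (3602 and 3861), RPS2 (3478 and 3494) and KRT18 (3242 and 3487) followed. Cytosolic ribosomal protein genes took 58 of the 100 highest places, 14 of the top 25 among them, and the whole family held 22.3% of the summed FPKM. Many of these genes have processed pseudogenes of near-identical sequence, so how reads were shared with the copies bears on single values.

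The other 11 of the top 25 had varied roles. The glycolytic enzyme GAPDH was at 3093 and 3004 FPKM, and ENO1, also glycolytic, was at 1548.5 and 1636.3 just outside the top 25. The elongation factors EEF1A1 (3065 and 2899) and EEF1G (1671 and 1646), and RACK1 (1693 and 1678), a scaffold on the small ribosomal subunit, belong to translation. TMSB10 (2506 and 2627) binds actin monomers and ACTG1 (1622 and 1602) is a cytoskeletal actin. The ferritin chains FTL (1835 and 1835) and FTH1 (1694 and 1716) store iron. SLC1A5 (1554 and 1674), the glutamine transporter of the plasma membrane, was the only transporter among the 25.

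**Figure D2:**
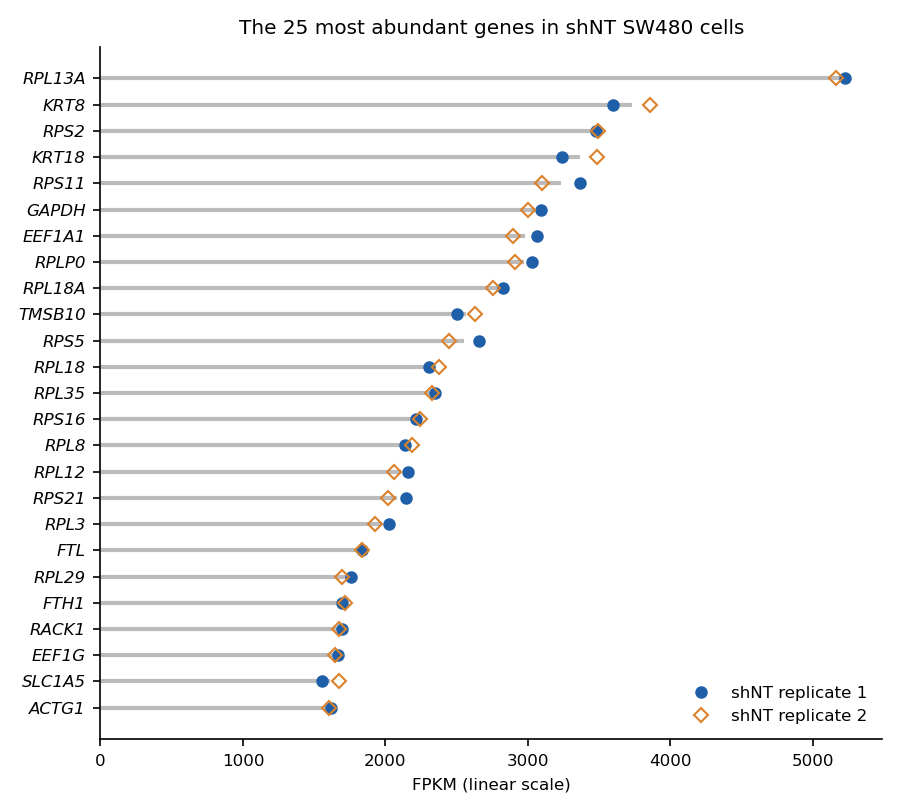
FPKM (linear axis from 0) of the 25 genes with the highest mean in the shNT cells, with filled circles for replicate 1, open diamonds for replicate 2 and grey bars to the mean. RPL13A stands apart from the rest (5226 and 5161), KRT8 and KRT18 are the only keratins of the 25, and the 2 libraries of each gene lie close together.

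Many ribosomal protein and translation factor mRNAs are known to begin with a C followed by a run of pyrimidines, the terminal oligopyrimidine start that places their translation under growth control. The 30 bases around the annotated transcription start (15 before and 15 after, RefSeq, GRCh38, transcribed strand) are shown for 10 of the 25 most abundant genes, chosen with their sequences known, to show translation genes with and without such a start and some other abundant genes, with the first 5 transcribed bases in capitals.
RPL13A: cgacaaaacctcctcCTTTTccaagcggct
EEF1A1: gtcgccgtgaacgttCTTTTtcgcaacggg
RPLP0: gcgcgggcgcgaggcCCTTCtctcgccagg
RACK1: ggggggcttttctctCTCTCtttcactgca
RPL3: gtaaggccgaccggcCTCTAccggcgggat
EEF1G: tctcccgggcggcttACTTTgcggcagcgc
KRT8: tgatgcatgattttcATTCAgcaaatgttt
GAPDH: agcgggtgcatccctGTCCGgatgctgcgc
FTL: tagccacgtcccctcGCAGTtcggcggtcc
SLC1A5: ccgctaaacgggctcAGAGCcacgcggcac
These lie at chr19:49487593-49487622 on the plus strand, chr6:73521018-73521047, chr12:120201097-120201126, chr5:181243892-181243921, chr22:39319609-39319638, chr11:62573877-62573906 and chr12:52926455-52926484 on the minus strand, chr12:6535249-6535278 and chr19:48965294-48965323 on the plus strand, and chr19:46788580-46788609 on the minus strand. RPL13A, EEF1A1, RPLP0 and RACK1 begin with a C and 4 further bases that are each C or T. The ribosomal protein gene RPL3, the elongation factor EEF1G and the other 4 do not. The counts over all matched genes follow, since these few do not stand for them.

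RefSeq start windows were found for 14896 protein-coding genes by symbol. A start of a C and 4 further bases that are each C or T, read on the transcribed strand only, was held by 4.67% of all of them and by 38 of the 79 matched genes among the 100 most abundant (48.1%). Among the matched ribosomal protein genes of the top 100 it was held by 30 of 46 (65.2%), and among the others by 8 of 33 (24.2%). By level the share was 3.32% among genes not listed in shNT, 3.50% above 0 and under 0.5 FPKM, 3.96% at 0.5 to 10, 5.67% at 10 to 100 and 19.8% at 100 FPKM or more. Over the 300 bases from 250 before to 50 after the start, the median number of CG pairs was 5 for genes not listed, 12 for genes above 0 and under 0.5 FPKM, 26 from 0.5 to 10 FPKM, 28 from 10 to 100 FPKM and 27 at 100 FPKM or more, and it was 25 for the 100 most abundant genes. It thus differed mainly between genes below and above the limit. The letters TATAAA, on either strand of the 250 bases before the start, were in 8.97% of all windows. By level the share was 20.3% for genes not listed, 11.5% above 0 and under 0.5 FPKM, 5.10% at 0.5 to 10, 4.51% at 10 to 100 and 7.63% at 100 FPKM or more, where it was higher again. These are descriptions of annotated windows, which need not be the starts used in SW480 cells.

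HOX genes keep the positional address of a cell, and 33 of the 39 were expressed (84.6%, against 59.7% of all protein-coding genes). In the HOXA cluster the peak was HOXA9 (ENSG00000078399, chromosome 7 of GRCh38, 27162435 to 27175180) at 47.4 and 44.8, with HOXA10 at 18.1 and 17.6, HOXA7 at 15.8 and 17, and HOXA11 at 5.88 and 5.39. In the HOXB cluster the peak was HOXB9 (ENSG00000170689, chromosome 17 of GRCh38, 48621159 to 48626356) at 34.5 and 33, with HOXB6 at 24.2 and 25.7, HOXB7 at 19.7 and 19.2, and HOXB8 at 15.9 and 16.6. Both clusters thus had their highest level at paralog 9, with lower levels on either side of it. HOXA9 was 48.7 and 46 times as high as HOXA13, and HOXB9 was 22.8 and 18.7 times as high as HOXB13, which was named after its values were seen.

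The HOXC and HOXD clusters were lower, with 1 gene above 10 FPKM each: HOXC10 at 13.1 and 12.1, and HOXD9 at 10.4 and 13. HOXB1 was not listed, and HOXA2 (0.327 and 0.362), HOXC12 (0.107 and 0.18), HOXD3 (0.0631 and 0.0388), HOXD4 (0.247 and 0.245) and HOXD12 (0.012 and 0.0176) were under the limit. HOXD1 (0.578 and 0.458) and HOXD10 (0.444 and 0.615) had 1 library on each side of it. Summed FPKM was 101 and 97.8 for HOXA, 122 and 125 for HOXB, 27.6 and 27.8 for HOXC, and 18.5 and 19.9 for HOXD.

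**Figure D3:**
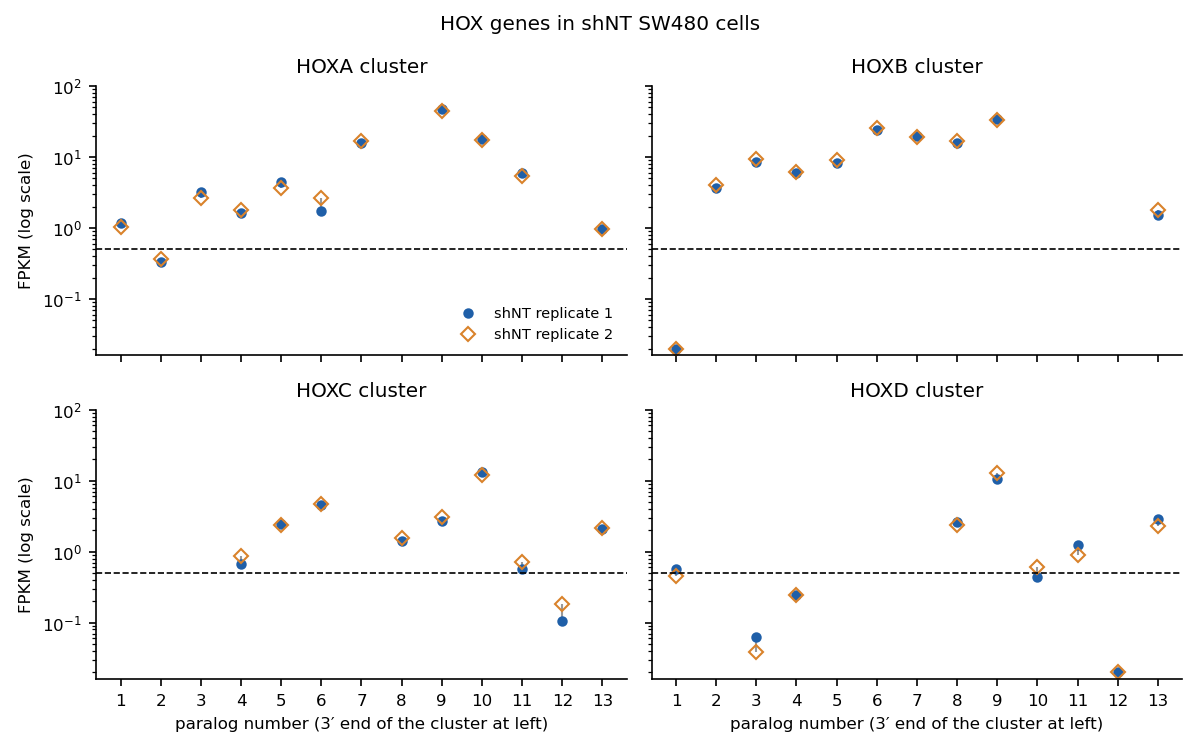
FPKM (log axis) of the 39 HOX genes by cluster and paralog number, with filled circles for shNT replicate 1, open diamonds for replicate 2 and a dashed line at 0.5 FPKM. Values under 0.02, HOXB1 included, are drawn at 0.02. HOXA and HOXB peak at paralog 9 (HOXA9 at 47.4 and 44.8, HOXB9 at 34.5 and 33), HOXC at paralog 10 and HOXD at paralog 9.

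Among intestinal transcription factors 18 of 27 were expressed (66.7%, against 59.7% of all protein-coding genes). Besides CDX2 (ENSG00000165556, chromosome 13 of GRCh38, 27962137 to 27971139), CDX1, its relative, was at 1.64 in both libraries. The endodermal factor HNF4A (ENSG00000101076, chromosome 20 of GRCh38, 44355700 to 44434596) was at 31.9 and 36.1, 88.1 and 92.5 times as high as its paralog HNF4G (0.362 and 0.39). FOXA3 (14.8 and 14.4) and FOXA2 (6.18 and 7.05) were expressed, and GATA6 (0.645 and 0.569) and FOXA1 (0.918 and 0.84) were close to the limit. GATA4, which has 2 identifiers, was not listed.

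All 5 epithelial factors were expressed. KLF5, which drives crypt cell proliferation, was at 117 and 113 FPKM, and SOX9, a factor of crypt progenitors, at 67.2 and 71.4. ELF3 (24.3 and 26.4), EHF (17.2 and 16.1) and KLF4 (5.11 and 6.25) act in epithelial differentiation. Of the factors that choose a cell fate, ASCL2, the stem cell regulator, was at 57.9 and 73.2, higher in replicate 2, and HES1 was at 9.24 and 9.58. The secretory regulators ATOH1 (0.0244 and 0) and SPDEF (0 and 0.0191) and the endocrine NEUROG3 (0 and 0.045) were at or near 0. In all, 3 of the 7 fate factors were expressed, GFI1 among them at 2.14 and 2.48.

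Genes of differentiated intestinal cells were expressed in 14 of 51 cases (27.5%, against 59.7% of all protein-coding genes), and 17 were not listed. The count was 24 with a limit of 0.1 FPKM and 22 after each library was rescaled to the same larger sum. Of 24 absorptive genes 6 were expressed, and besides VIL1 the highest were CEACAM1 (3.63 and 3.23), an adhesion molecule, and LGALS4, which is under 2 identifiers. The brush border sucrase SI, the carbonic anhydrases CA1 and CA4, the chloride exchanger SLC26A3, the water channel AQP8 and the apolipoprotein APOA4 were not listed. FABP1, a fatty acid carrier of enterocytes, was at 0 and 0.415.

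Of 8 goblet cell genes 1 was expressed, TFF3, the trefoil peptide secreted with mucus, at 73.7 and 75.6 FPKM. AGR2, a disulfide isomerase of mucin folding, and SPINK4 were not listed. Among mucins 4 of 13 were expressed (30.8%, against 59.7% of all protein-coding genes, and 2 at a limit of 1 FPKM). The membrane mucin MUC13 led at 17.5 and 16.5. Of those counted under the limit, MUC2, the main gel mucin of the colon (0.164 and 0.248, 3 identifiers), MUC6 (0.0042 and 0.0121, 4 identifiers) and MUC20 (not listed, 8 identifiers) cannot be read as low. Of the Paneth genes the defensin DEFA5 was at 19.3 and 22 and DEFA6 at 0.567 and 3.41, both under 2 identifiers, and DEFA6 differed beyond the 1.51-fold within which 95% of genes at 1 to 5 FPKM stayed. Enteroendocrine genes were low, with NEUROD1 at 1.91 and 1.87 and CHGA at 0.0246 and 0.0584 under 2 identifiers.

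Of the 17 stem cell genes 11 were expressed (64.7%, against 59.7% of all protein-coding genes). AXIN2, a Wnt feedback gene (66.3 and 67.1), ASCL2, CD44 (33.9 and 31.2), a hyaluronan receptor, and RNF43 (17.5 and 18.7), a ubiquitin ligase that removes Wnt receptors and is under 2 identifiers, were the 4 highest. LGR5, the receptor that defines crypt base stem cells, was at 0.482 and 0.458, just under the limit in both libraries. OLFM4 and HOPX were not listed, SMOC2 was at 0.153 and 0.228, and PROM1 was at 0.0171 and 0.

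Keratins form the intermediate filaments of epithelial cells as pairs of a type I and a type II chain. The simple epithelial pair KRT8 (ENSG00000170421, chromosome 12 of GRCh38, 52897187 to 52949954) and KRT18 (ENSG00000111057, 52948871 to 52952901 on the same chromosome) stood in a ratio of 1.11 in both libraries, and the annotated spans of these neighbors overlap. KRT19 was at 1016.7 and 1093.1, KRT23 at 41.8 and 51.5 under 2 identifiers, KRT80 at 37.4 and 40.7, and KRT7 at 3.79 and 3.21. All 18 keratins on the list together came to 9028.2 and 9686.9 FPKM.

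Keratins of stratified epithelium were also present, 8 of 11 at or above the limit. KRT5 was at 957 and 1026.4, which KRT8 exceeded 3.76-fold in both libraries. KRT17 (49.8 and 48.3), KRT6A (28.4 and 29.4) and KRT13 (18 and 15.9) were next. The usual partner of KRT5 in basal cells, KRT14, was at 0.136 and 0.0947, and the basal cell regulator TP63 was at 0.0236 and 0.0233. Among the 6 squamous markers, IVL (0.0165 and 0.0224) and SPRR1B (0 and 0.148) were also under the limit and DSG3 was at 1.28 and 1.04, so KRT5 stood nearly alone among them.

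Junction genes were expressed in 40 of 61 cases (65.6%, against 59.7% of all protein-coding genes). CDH1 (ENSG00000039068, chromosome 16 of GRCh38, 68737225 to 68835548), the E-cadherin of adherens junctions, was at 15.1 and 14.7, and CDH3, P-cadherin, at 10.5 and 11.2. CDH2, N-cadherin, was not listed. The catenins of adherens junctions were higher, with CTNNB1 at 287 and 285, CTNNA1 at 153 in both and CTNND1 at 31.2 and 30.8. NECTIN2 (34.1 and 40) and NECTIN1 (21.5 and 23.2) were expressed, and NECTIN3 (0.177 and 0.0878) was not.

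Of 21 claudins, the strand proteins of tight junctions, 10 were expressed (47.6%, against 59.7% of all protein-coding genes). CLDN4 (206 and 223) and CLDN7 (200 and 204, under 2 identifiers) led, then CLDN3 (42.7 and 44.3) and CLDN11 (29.6 and 30.5). CLDN2 was at 0.00994 and 0.018, and CLDN6, CLDN8 and CLDN17 were not listed. All 8 of the other tight junction genes were expressed, with F11R at 20 in both libraries and OCLN lowest (1.08 and 1.16, under 2 identifiers). Of the desmosome genes 9 of 13 were expressed, with the plaque proteins JUP (181 and 187), PKP3 (85.3 and 94.1) and DSP (49 and 51.3) highest and the skin cadherins DSG1, DSG4, DSC1 and DSC3 under the limit.

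The study asked how PCYT2 bears on epithelial-mesenchymal transition. Of 12 mesenchymal markers 7 were expressed (58.3%), near the 59.7% of all protein-coding genes. VIM, the mesenchymal filament vimentin, was at 86.5 and 83.6, which is 5.72 and 5.68 times the level of CDH1, and S100A4 was at 880 and 868. FN1 was at 5.50 and 5.74, ACTA2 at 2.94 and 3.79 and COL1A1 at 1.08 and 1.03. SPARC (0.636 and 0.976) and TAGLN (0.625 and 0.734) were just over the limit. The other 5 were not expressed, with CDH2, COL1A2 and COL3A1 not listed, MMP2 at 0.12 and 0.106 and MMP9 at 0.113 and 0.0471. Of 10 transcription factors 5 were expressed. SNAI1 led with 8.26 and 8.73, followed by SNAI3 at 1.5 and 1.37. Near the limit were SNAI2 (0.885 and 1.08), ZEB1 (0.835 and 0.684) and TWIST2 (0.751 and 0.719, under 2 identifiers). ZEB2 was not listed and TWIST1 was at 0.0215 and 0.

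The epithelial splicing regulators ESRP1 (24.3 and 24.8) and ESRP2 (12.8 and 14.6), the polarity gene CRB3 (28.4 and 28.3) and the membrane protease ST14 (71 and 81.3) were expressed. So were the transcription factors OVOL2 (6.97 and 7.12), GRHL1 (2.98 and 2.83) and OVOL1 (2.19 and 2.01), chosen after their values were seen. The other 4 of the 11 epithelial regulators were under the limit, namely the transcription factors GRHL2 (0.0235 and 0.0547) and GRHL3 (0.0563 and 0.097), the vesicle regulator RAB25 (0.135 and 0.116) and PRSS8 (0.261 and 0.438). Over the whole list 19 of 33 genes were expressed, close to the share of all protein-coding genes.

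Integrins bind cells to matrix. The β subunit ITGB4, the laminin receptor chain of hemidesmosomes, was the most abundant at 181 and 194, which is 2.69 and 3.24 times ITGB1 (67.4 and 59.8). Its partner ITGA6 was at 55.6 and 51.8, ITGA5 at 30.8 and 30.9 and ITGA3 at 28 and 30.6. The leukocyte chains ITGAL, ITGAM and ITGAX were not listed, and ITGB2 was at 0.245 and 0.313. Laminins were led by LAMB3 (75.1 and 78.7), LAMA5 (55.7 and 65.8) and LAMB2 (29.3 and 31.4), and the heparan sulfate proteoglycan AGRN was at 78.3 and 91.5.

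Of 29 genes on the matrix protease list 13 were expressed (44.8%, against 59.7% of all protein-coding genes). By role these were 5 of 18 matrix metalloproteinases, 3 of 4 inhibitors and 5 of 7 genes of plasminogen activation. The metalloproteinases summed to 27.5 and 30.9 FPKM and the plasminogen activation genes to 147 and 138. MMP14 (8.38 and 9.11), MMP15 (8.27 and 8.95) and MMP17 (4.79 and 5.84) are anchored to the membrane, and MMP11 (4.03 and 5.33) is under 2 identifiers. MMP2, MMP7 and MMP9 lay under 0.2 FPKM in both libraries, and MMP3, MMP8, MMP12 and MMP13 were not listed. The inhibitors TIMP1 (69.8 and 66) and TIMP2 (48.1 and 51) were higher than any matrix metalloproteinase of the list. PLAUR, the urokinase receptor, was at 33.1 and 27.4, and its ligand PLAU at 1.86 and 1.58.

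Of 74 Wnt genes 59 were expressed (79.7%, against 59.7% of all protein-coding genes), and the levels differed by role. Ligands were present but low, 12 of 19 at or above the limit and none above 10 FPKM in the mean, led by WNT6 (8.32 and 11.6) and WNT11 (8.97 and 8.93). Receptors were led by the co-receptor LRP5 (45.9 and 51.2), and the highest frizzled gene, FZD10, was at 5.53 and 5.70. The 15 expressed receptors had a median of 2.04 FPKM.

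Of the core pathway genes, CTNNB1 (β-catenin, ENSG00000168036, chromosome 3 of GRCh38, 41194741 to 41260096) was at 287 and 285, DVL1 at 102 and 114, GSK3A at 66.9 and 70.6 and CSNK1A1 at 45.4 and 42. APC (ENSG00000134982, chromosome 5 of GRCh38, 112707498 to 112846239), chosen after its values were seen, was the lowest of the 11 core genes at 1.92 and 1.51, and CTNNB1 exceeded it 150- and 189-fold. Of the nuclear partners TCF7 was at 13.1 and 15.4 and LEF1 at 14.6 and 14.2, above TCF7L2 (5.76 and 5.53).

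By role, the median of the expressed members was highest for targets and feedback inhibitors, at 65.5 FPKM over 15 of 20. That median leaves out the 5 members under the limit, of which 4 were not listed. The 11 core genes, all expressed, had a median of 20.3, although CTNNB1 among them exceeded MYC. DKK4, a secreted inhibitor (ENSG00000104371), was at 337 and 329, MYC at 268 and 272, APCDD1 at 161 and 184, NOTUM, which strips the lipid from Wnt ligands, at 129 and 153, and CCND1 at 132 and 134. The secreted inhibitors DKK2, WIF1, SFRP1 and SFRP2 were not listed, and SFRP4 was at 0.136 and 0.113. NOTUM and APCDD1 were both higher in replicate 2.

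**Figure D4:**
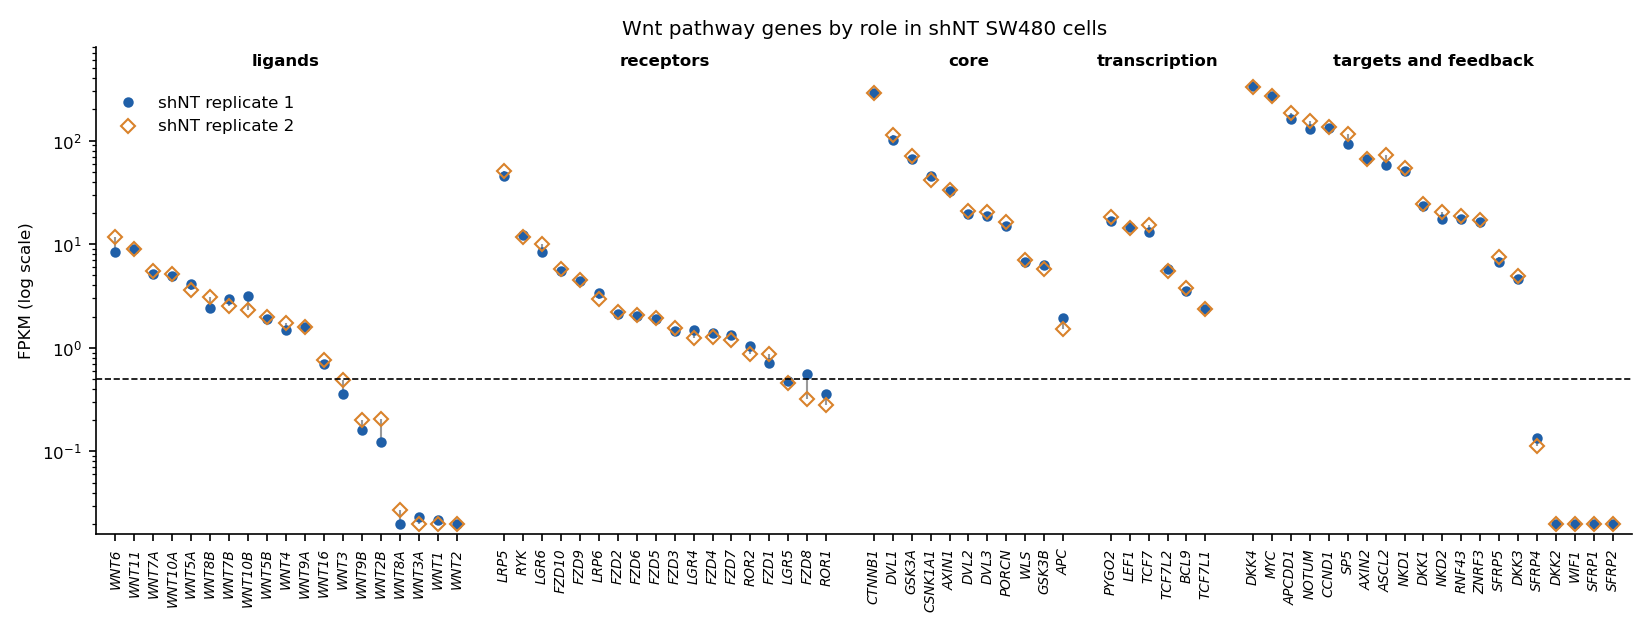
FPKM (log axis) of 74 Wnt pathway genes in 5 roles, ordered by mean within each role, with filled circles for shNT replicate 1, open diamonds for replicate 2 and a dashed line at 0.5 FPKM. Values under 0.02 are drawn at 0.02. The targets reach 337 and 329 (DKK4) and the core genes 287 and 285 (CTNNB1), whereas ligands stay near or under 10.

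EGF receptor and ERK pathway genes were expressed in 39 of 45 cases (86.7%, against 59.7% of all protein-coding genes). The ligands AREG (51.9 and 46.1), TGFA (18.3 and 16.9) and EREG (11.4 and 8.85) led, and EGF and NRG1 were not listed. Of the receptors ERBB3 (21.4 and 20.8) and ERBB2 (19.5 and 21.7) were at like levels, EGFR was lower at 3.38 and 3.23, and ERBB4 was at 0.0534 and 0.0206. All 14 core genes were expressed, MAP2K2 highest at 123 and 141. All 16 output genes were expressed too, led by PHLDA1 (112 and 109), the ETS factor ETV4 (91.6 and 103), the AP-1 subunit FOSL1 (48.3 and 50.7) and the early gene EGR1 (50 and 46.3).

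Other receptor tyrosine kinases were expressed in 12 of 32 cases (37.5%, against 59.7% of all protein-coding genes). At a limit of 0.1 FPKM the count was 19. FGFR4, a receptor for FGF19 in the intestine and liver, was the highest at 58 and 63.7, which is 3.87 and 4.09 times FGFR3 (15 and 15.6). FGFR1 (14 and 15.8) and MST1R (12.9 and 14.7) were next. The endothelial KDR, TEK and FLT4, the stromal PDGFRA and the stem cell factor receptor KIT were each under 0.1 FPKM in both libraries.

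In the TGF-β and BMP pathways 29 of 43 genes were expressed (67.4%, against 59.7% of all protein-coding genes). The ligands BMP4 (128 and 137), TGFB1 (108 and 112), INHBB (85.2 and 89.2) and BMP7 (30.9 and 34.8) led, and the receptor TGFBR2 was at 16 and 14.6. SMAD4 (ENSG00000141646, chromosome 18 of GRCh38, 51028394 to 51085045), the partner of all receptor-activated SMADs, was at 0.111 and 0.146, whereas SMAD3 was 90.5 and 71.8 times as high (10 and 10.5). The BMP target ID1 was at 63 and 65.1 and the decoy receptor BAMBI at 98 and 105. ID3, also a BMP target, was at 1.42 and 3.56 under 2 identifiers, so its libraries were over 1.5-fold apart.

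Notch genes were expressed in 17 of 19 cases (89.5%, against 59.7% of all protein-coding genes). The ligands JAG2 (66.7 and 75.1) and DLL3 (27.2 and 29.8) and the glycosyltransferases LFNG (66.2 and 78.9) and RFNG (25.7 and 31.2) were highest. NOTCH4, which has 7 identifiers, was not listed. Hedgehog genes were expressed in 6 of 11 cases (54.5%, near the 59.7% of all protein-coding genes), none above 10 FPKM, with the receptor PTCH1 at 6.08 and 6.44 and the target GLI1 at 0.234 and 0.25. SMO was at 0.867 and 1.65, a difference of over 1.5-fold between libraries.

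In the Hippo pathway the kinases STK3, STK4, LATS1 and LATS2 restrain YAP1 and WWTR1 (TAZ). Of its 31 listed genes 28 were expressed (90.3%, against 59.7% of all protein-coding genes). YAP1 was at 25.8 and 25.5, which is 7.70 and 7.38 times WWTR1 (3.36 and 3.45). TEAD4 (50.8 and 53.3) was the highest of the DNA-binding partners, 3.58 and 4.19 times TEAD1 (14.2 and 12.7). STK4 (16 and 14.1) exceeded STK3 (3.35 and 2.47), and LATS1 (3.02 and 2.57) and LATS2 (3.17 and 3.18) were low. The 8 target genes were all expressed but mostly low, with AJUBA at 17.2 and 20.1, AMOTL2 at 7.14 and 7.71, CCN1 at 2.76 and 3 and CCN2 at 1.65 and 1.46. The phosphatase scaffold PPP2R1A was at 62.9 and 67.1, 14.6 and 15.1 times PPP2R1B.

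Nuclear receptors were expressed in 27 of 48 cases (56.2%, near the 59.7% of all protein-coding genes). ESRRA, a regulator of mitochondrial genes, was at 96.4 and 106, NR2F6 at 77.4 and 86.8, NR1H2, an oxysterol receptor, at 34.4 and 37.3, and HNF4A followed. The steroid receptors ESR1 and PGR were not listed, and the glucocorticoid receptor NR3C1 was at 0.462 and 0.362. PGR was chosen after its values were seen. The bile acid receptor NR1H4 (0.0283 and 0) and the xenobiotic receptor NR1I2 (0 and 0.0105) were near 0.

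Of the genes of glycolysis and gluconeogenesis 31 of 44 were expressed (70.5%, against 59.7% of all protein-coding genes). Every step from glucose uptake to lactate export had a highly expressed gene. The transporter SLC2A1 (467 and 496) was 2.11 and 2.37 times SLC2A3 (221 and 209), and SLC2A2 was not listed. HK1 (39.3 and 39) and HK2 (31.3 and 31.6) were the main hexokinases. The 3 phosphofructokinase genes were all expressed, PFKL at 86.9 and 99.2, PFKP at 57.9 and 60 and PFKM at 42.3 and 39.7.

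At the later steps ALDOA (406 and 386) was 36.1 and 37.4 times ALDOC, ENO1 was 39.3 and 39.5 times ENO2, and PKM (814 and 862) stood against PKLR, under 2 identifiers, at 0.0981 and 0.11. LDHA (477 and 426, under 2 identifiers) and LDHB (377 and 339) were closer, at a ratio of 1.27 and 1.26. The lactate exporters were SLC16A3 (116 and 134) and SLC16A1 (16.1 and 15.1, under 2 identifiers). Of the gluconeogenic genes PCK2, the mitochondrial enzyme, was at 20.9 and 28 under 2 identifiers, PCK1 was at 0.817 and 0.622, and G6PC1 was not listed.

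In the tricarboxylic acid cycle 22 of 23 genes were expressed, the exception being PDHA2, a testis form. MDH2 (231 and 239), SDHB (104 and 98.1), SDHA (98.9 and 99.8) and MDH1 (93 and 86) were highest. Genes of glutamine, serine and one-carbon use had the highest median of the lists, 59.2 FPKM over all 20 members, with 19 expressed. SLC1A5 (ENSG00000105281, chromosome 19 of GRCh38, 46774883 to 46788594) was 6.03 and 5.73 times SLC7A5 (258 and 292), the transporter for large neutral amino acids. ASNS, asparagine synthetase, was at 240 and 218, and the mitochondrial SHMT2 (221 and 240) exceeded the cytosolic SHMT1 63.3- and 56.4-fold, SHMT1 being under 2 identifiers and chosen after its values were seen.

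Fatty acid and neutral lipid genes were expressed in 39 of 53 cases (73.6%, against 59.7% of all protein-coding genes). For synthesis SCD, the Δ-9 desaturase, was at 130 and 121, FASN at 78.9 and 90.1 and ACLY at 69.4 and 69.9. The cytosolic carboxylase ACACA, under 2 identifiers, was expressed, and its mitochondrial relative ACACB was at 0.44 and 0.458. ELOVL1 (58.2 and 56.5) and ELOVL5 (31.1 and 27.9) led elongation, and ELOVL2 and ELOVL4 were not listed.

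For uptake and binding FABP5 was at 90.4 and 79.5 and FABP6, the bile acid carrier of the ileum, at 10.4 and 10.7, with SLC27A4 at 12.8 and 13.2. CD36 was at 0.448 and 0.606, on both sides of the limit, and FABP4 and FABP7 were not listed. For oxidation ACADVL was at 155 and 164 and CPT1A at 25 and 27.8. Lipid droplet genes were led by the lipase PNPLA2 (46.5 and 55.7) and the coat protein PLIN3 (22 and 21.5), and PLIN1, PLIN4 and PLIN5 were under the limit.

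Sterol genes were expressed in 33 of 40 cases (82.5%, against 59.7% of all protein-coding genes), and 19 of the 20 synthesis genes were. FDPS (80.2 and 82.6), DHCR7 (60.1 and 60.4), FDFT1 (57.1 and 49.8, under 2 identifiers) and EBP (47.9 and 47.1) were highest, and the regulator SREBF2 was at 48.4 and 50.7. NPC2 was at 49 and 46.9 and APOE at 30.6 and 36.1. ABCA1, the cholesterol exporter, was at 0.0861 and 0.0644, and APOB and ABCG5 were not listed.

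Phosphatidylethanolamine is made by the CDP-ethanolamine branch of the Kennedy pathway in the endoplasmic reticulum, by decarboxylation of phosphatidylserine in mitochondria, and it can be methylated to phosphatidylcholine. All 5 genes of the CDP-ethanolamine branch were expressed, none of them above 15 FPKM. The kinases ETNK1 and ETNK2 were at 13.9 and 12.4 and at 3.97 and 3.78, a ratio of 3.50 and 3.28. PCYT2 (ENSG00000185813, chromosome 17 of GRCh38, 81900965 to 81911464) was at 11.6 and 13.8, and the transferases SELENOI and CEPT1 were at 10 and 8.46 and at 9.96 and 8.40.

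The decarboxylase PISD was at 15 in both libraries, and the serine exchange enzymes PTDSS1 and PTDSS2 (under 2 identifiers) were at 13 and 13.7 and at 7.73 and 8.72. In the phosphatidylcholine branch PEMT, the methyltransferase known best from liver, was at 32.6 and 34, which is 5.11 and 5.48 times PCYT1A (6.37 and 6.20), and PCYT1B was at 0.0409 and 0.0822. PCYT2 was 1.83 and 2.22 times PCYT1A. PEBP1, a phosphatidylethanolamine-binding protein that the study followed, was at 79.6 and 83, and its relative PEBP4 was not listed.

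Acyl remodeling genes were expressed in 11 of 13 cases. AGPAT2, which makes phosphatidic acid, had the highest values at 158 and 174, 8.87 and 9.23 times AGPAT3 (17.8 and 18.9). Its relative AGPAT1 was at 2.14 and 5.76 under 7 identifiers, so AGPAT1 is not read as low beside AGPAT2. MBOAT1 was at 0.461 and 0.537, with a mean just under the limit. Cardiolipin and inositol lipid genes were all expressed, 6 of 6, with CDIPT highest at 29 and 34.3, and CERS2 (50.5 and 52.1) led the sphingolipid genes.

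Cell cycle genes were expressed in 40 of 44 cases, including all 16 of replication and mitosis, led by MCM7 (199 and 217), PCNA (91.1 and 93.5), MCM2 (39.5 and 44) and CCNB1 (43 and 38.9). CDK4 was at 78.9 and 87.1, and CCND1 was 3.94 and 4.24 times CCND2 (33.5 and 31.5). The inhibitor CDKN2A was at 118 and 130 and CDKN1A at 28 and 23.8. MYC was 43.9 and 47.5 times MYCL, and MYCN was at 0.192 and 0. All 9 mismatch repair and related genes were expressed, with MSH6 highest at 26.1 and 23.9.

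Among pro-survival genes BCL2L1 (130 and 141) was 3.32 and 3.61 times MCL1 (39.1 and 39) and 472 and 403 times BCL2 (0.275 and 0.35), which was under the limit. All 11 effectors and BH3-only genes were expressed, BAX at 71.3 and 79.1 and BBC3 at 41.2 and 47.3 highest. The inflammatory caspases CASP1 and CASP5 were not listed and CASP10 was at 0.188 and 0.198. Hypoxia genes were expressed in 12 of 14 cases, NDRG1 at 102 and 95.3 and CA9 at 39.4 and 44.9, whereas BNIP3 was at 0.175 and 0.202 and CA12 at 0.0616 and 0.0556.

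Antigen presentation genes were expressed in 12 of 30 cases (19 at a limit of 0.1 FPKM and 19 after rescaling), but these counts are bound by the several identifiers. HLA-E (4.25 and 4.22), HLA-B (0.191 and 0.279), HLA-C (0.304 and 0.256) and TAP1 (0.533 and 0.605) each stand under 6 or more. B2M, the light chain of class I molecules, was at 17 and 25.3 under 2. The class II transactivator CIITA, with 1 identifier, was at 0.0453 and 0.0712. Among the checkpoint ligands NECTIN2, CD276 (29.8 and 31.7) and PVR (22.3 and 23.4) were expressed and CD274 (PD-L1) was at 0.332 and 0.0554.

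Innate sensing genes were expressed in 10 of 23 cases (43.5%, against 59.7% of all protein-coding genes). The cytosolic DNA sensor CGAS was not listed, its adaptor STING1 was at 2.34 and 2.55 under 2 identifiers and was chosen after its values were seen, RIGI was at 0.54 and 0.404, and IRF3 was at 78.3 and 87.3. The toll-like receptors on the list were all under 0.25 FPKM in both libraries or not listed. Chemokines and cytokines were expressed in 8 of 25 cases (13 at a limit of 0.1 FPKM and 5 at 1), CXCL16 (20.8 and 20.7), LIF (13.7 in both), IL11 (7.22 and 6.57) and CXCL8 (2.68 and 2.25) highest.

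Of the genes of drug handling 20 of 36 were expressed (55.6%, near the 59.7% of all protein-coding genes). GSTP1, which conjugates glutathione to electrophiles, was at 778 and 831, NQO1 at 33.5 and 32 and ALDH1A3 at 25.5 and 23.4, while GSTA1 and GSTM1 were not listed. For fluoropyrimidines, standard drugs of colorectal cancer, the target TYMS was at 17.5 and 18.4 and the degrading enzyme DPYD at 0.345 and 0.24. The efflux pump ABCB1 was at 17.4 and 15.5, the highest of 7 ABC transporters, and ABCG2 was at 0.0601 and 0.0891. UGT1A6, whose exons are shared with the other UGT1A genes, was at 1.90 and 0.60. Of 18 cancer-testis antigen genes only MAGEC2 was expressed, at 3.94 and 4.15, with 3 genes at a limit of 0.1 FPKM and 2 after rescaling.

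**Figure D5:**
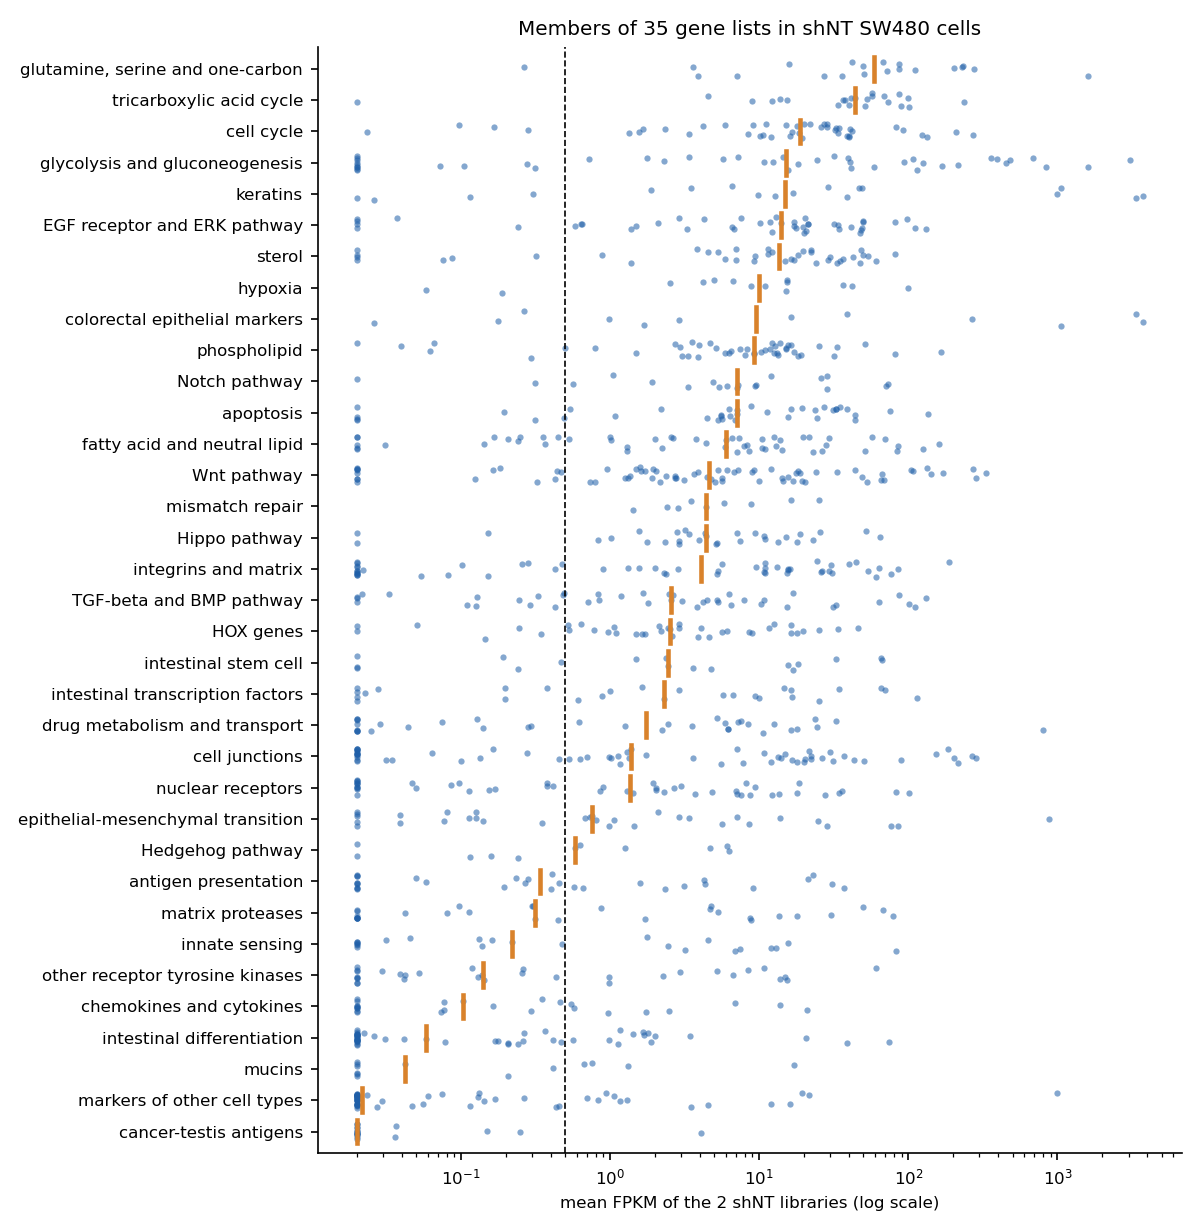
Mean FPKM over the 2 shNT libraries (log axis) of every member of 35 gene lists, 1 point per gene, with an orange bar at the list's median over all members and a dashed line at 0.5 FPKM. Values under 0.02 are drawn at 0.02. The medians run from 59.2 for glutamine, serine and one-carbon genes to 0 for cancer-testis antigens.

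Identical identifiers were merged by their values in every library, those of the knockdown groups included. Beyond that, the knockdown libraries served only to ask how far the on or off state of the listed genes is particular to shNT cells. Of the 1121 genes on the lists, 737 were expressed in shNT, and 1067 lay on the same side of the limit in the mean of both knockdown groups. In 46 the mean of 1 knockdown group lay on the other side, and in 8 that of both did. The 8 were HOXD1, CHGB, LGR5, CLDN5, CLDN23 (under 2 identifiers), NR1I3, CD36 and CSF2. As single libraries the 2 shNT libraries lay on different sides for 21 genes, a measure unlike that of group means. LGR5 had means of 0.568 with shPcyt2-1 and 0.713 with shPcyt2-2, and CLDN5, at 0.657 and 0.751 in shNT, had 0.263 and 0.246. No difference between groups was tested here. Over all genes, 12296 of the 13147 expressed in any group (93.5%) were expressed in all 3.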

How the data were processed

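The authors deposited 1 table per library with a gene identifier and a value, read here as FPKM from their size and sum. TPM over part of the genes cannot be told apart from it, and the tables list only genes above 0, with no read counts. Libraries were made with NEBNext Ultra or SMARTER mRNA-seq kits; which kit made which library is not known here. The submitters' processing notes name GRCh38, GRCm38 and mm10 with no role, and the aligner and counter are not given in the sources used here. Genes were named and placed with GENCODE release 29 (GRCh38), which holds 19504 of 21539 identifiers. Repeated rows (115 identifiers) were added up. Identifiers whose values matched in every library formed 1143 groups, each kept as 1 gene, leaving 19437 genes. These are fewer than the 19504 annotated identifiers, so some annotated identifiers were merged with each other. A gene was expressed at a mean of 0.5 FPKM or more over the 2 shNT libraries. Named genes were the 25 most abundant and, per role of 36 lists, the 4 highest and up to 12 under the limit (all in roles of 8 or fewer), with members at 0.25 to 1 FPKM, those over 1.5-fold apart, and genes the study followed. Members and lists were chosen with earlier results of these data known. No test was run. Joining was tested on simulated data. Start windows came from the RefSeq table for GRCh38. Tools were Python 3.11.15, pandas 2.3.3, numpy 2.4.6 and matplotlib 3.10.9. Alternatives were other limits (0.1 and 1), each library alone or both at the limit, other merging, rescaling to a common sum, and protein-coding genes only. Some listed genes are not reported here.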

Additional observations from a re-analysis of the deposited data

How the results depend on the processing

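The number of expressed genes, 12710 in the shNT cells, was 15055 with a limit of 0.1 FPKM and 11561 with a limit of 1, and 12744 and 12690 with 1 shNT library left out. It was 14129 after rescaling each library to the same larger sum and 12808 with values summed over identical identifiers, an alternative chosen after seeing the data. The share of the 100 most abundant genes, 34.4%, was 33.5% without merging identical identifiers, and 34 to 34.9% with 1 library left out. Of the 36 list counts, 30 stayed within 1.5 times at a limit of 0.1, 34 at 1, 33 after rescaling, and all 36 under the other alternatives run. At 0.1 FPKM the count rose to 24 for intestinal differentiation, 19 for other receptor tyrosine kinases, 19 for antigen presentation, 13 for chemokines, 3 for cancer-testis antigens and 21 for markers of other cell types. At 1 FPKM it was 2 for mucins and 5 for chemokines. No paired analysis was possible because no result came from a test. With no read counts, the depth behind a low value is unknown.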

Other observations

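Outside the lists, and chosen after their values were seen, the most abundant noncoding genes of the shNT cells were hosts of small nucleolar RNAs. LRRC75A-AS1 (also known as SNHG29) was at 772 and 659 FPKM in replicates 1 and 2, GAS5 at 462 and 392, SNHG5 at 442 and 407 and ZFAS1 at 364 and 327, each higher in replicate 1. NORAD, a long noncoding RNA that binds Pumilio proteins, was at 76.8 and 73.4, and PVT1, the neighbor of MYC, at 46.4 and 47.0. Without stated strand, reads of antisense genes such as ZFAS1 and of the genes they overlap cannot be told apart.

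A small number of genes differed between the 2 shNT libraries far beyond their level, and several were members of near-identical pairs. CBS was at 17.2 and 1.83 where its copy CBSL was at 1.49 and 20.6. SLX1A was at 1.15 and 14.8 where SLX1B was at 15 and 0.386. NOMO2 was at 0 and 11.7 where NOMO3 was at 11 and 1.64. In these 3 pairs the library that was low for the one gene was high for the other. The copies F8A1 (3.63 and 32.7) and F8A3 (3.55 and 10.4) were instead both higher in replicate 2. The readthrough gene BLOC1S5-TXNDC5 was at 30.9 and 0.116, and PSMB3, a proteasome subunit, at 0.113 and 20. Single values of such genes are uncertain in these libraries.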
